A study of Mus musculus with 18 samples.

Results

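The B lineage and immunoglobulin genes followed here are Cd79a, Cd79b, Ms4a1, Pax5, Blnk, Btk, Igha, Ighm and Jchain, taken by name. Every probe set of the Affymetrix U74A, U74B and U74C array types whose platform annotation names only 1 of these genes was included, giving 32 of 36701 probe sets and 9 of 15964 named genes. U74A carries 30 of the 32, U74B carries 2 and U74C none. Ighm has 16 probe sets, Igha 4, Ms4a1 3, Pax5, Blnk and Btk 2 each, and Cd79a, Cd79b and Jchain 1 each. A further 4 probe sets name a member together with other genes and were left out. The only one with signals of 100 or more, 99421_at (Igha and Ighm among 4 symbols), had 248.8 and 308 in IKDC, 501.9 and 507.2 in cDC, and 467.8 and 358.2 in PDC, with both other populations under cDC. The samples were 3 populations of mouse spleen cells: IKDC, the labels' interferon-producing killer dendritic cells, PDC, the plasmacytoid dendritic cells, and cDC, the conventional ones. Each population had 2 samples, prepared separately per the series' design text, and each sample was hybridised to all 3 array types, making 18 arrays. The submitters used cDC as the control. Strain, age, treatment, the number of animals and the way the cells were sorted are not given in the sources used here. P-values therefore measure only the spread between separately prepared samples, which may be technical in part.

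B cells recognise antigen with a membrane immunoglobulin, whose signal passes through the Cd79a and Cd79b chains to the adaptor Blnk and the kinase Btk. Pax5 is the transcription factor that holds B cell identity, and Ms4a1 encodes the B cell surface protein CD20. When B cells become plasma cells they secrete immunoglobulin: Ighm encodes the heavy chain of IgM, Igha that of IgA, and Jchain the small chain that joins IgM or IgA units into polymers. Blnk and Btk are also known in other blood cells, among them dendritic cells, and plasmacytoid dendritic cells are known to share some transcripts with the B lineage. The spleen holds many B cells and some plasma cells.

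Values are the authors' signals, an intensity per probe set scaled on each array to a target of 150. Differences were computed on log2(signal + 16), a scale that understates the change of dim probe sets, and were tested with limma over 23285 probe sets with a signal of at least 60 on 2 or more of 6 arrays. A probe set is called where the adjusted p is under 0.05. Median signals of the arrays lay between 51.7 and 87.2, and precision is limited by how few arrays there are. The unspiked bacterial controls reached 45.2 on U74A and 122.7 on U74B, so a U74B signal under the latter is not clearly above background. RNA was amplified in a pair of rounds before labelling, and Gapdh control signals were 2.97 to 6.0 times higher at the 3' than at the 5' end. Both ends of this range were PDC arrays. On U74A the ratio was 6.0 in PDC replicate 1 and 3.19 in PDC replicate 2, and on U74B it was 2.97 in PDC replicate 2. The part of this in the replicate differences was not tested. Labels and markers matched: Ncr1, a natural killer receptor, had signals of 1357.3 and 1608.1 in IKDC against 38.8 to 84.2 elsewhere. Siglech, a plasmacytoid dendritic cell receptor, stood at 7189.9 and 6513.5 in PDC against 18.3 to 156.8 elsewhere. The class II gene H2-Ab1 had 8994.9 and 7778.6 in cDC, 3380.3 and 4549.9 in PDC, and 657.5 and 381.1 in IKDC.

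Of the 9 genes 5 have a promoter in the RefSeq table used (GRCm38.p6): Blnk, Cd79a, Jchain, Btk and Pax5. The 250 bases before the annotated start, read 5' to 3' on the gene's strand, are shown for Blnk because both of its probe sets were called higher in PDC, for Jchain because it was called with the immunoglobulin chains in IKDC and PDC, and for Cd79a as a receptor chain that was not called. Capitals mark matches to the octamer ATGCAAAT, the motif of Oct family factors in immunoglobulin promoters, and to GGAAGT, a core of the ETS family to which Spib belongs. Both strands were searched, so the octamer may stand as ATTTGCAT and the ETS core as ACTTCC. The windows lie at chr19:40994222-40994471 on the minus strand (Blnk), chr7:24897247-24897496 on the plus strand (Cd79a) and chr5:88527898-88528147 on the minus strand (Jchain).
Blnk: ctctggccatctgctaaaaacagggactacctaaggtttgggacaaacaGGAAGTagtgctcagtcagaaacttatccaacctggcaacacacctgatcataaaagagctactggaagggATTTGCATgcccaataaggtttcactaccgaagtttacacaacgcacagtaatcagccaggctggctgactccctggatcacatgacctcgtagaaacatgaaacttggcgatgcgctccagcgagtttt
Cd79a: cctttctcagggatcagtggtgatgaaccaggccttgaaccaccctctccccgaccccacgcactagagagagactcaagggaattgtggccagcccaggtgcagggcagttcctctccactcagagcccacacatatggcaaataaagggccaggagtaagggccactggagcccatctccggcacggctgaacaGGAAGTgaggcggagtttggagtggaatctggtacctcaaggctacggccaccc
Jchain: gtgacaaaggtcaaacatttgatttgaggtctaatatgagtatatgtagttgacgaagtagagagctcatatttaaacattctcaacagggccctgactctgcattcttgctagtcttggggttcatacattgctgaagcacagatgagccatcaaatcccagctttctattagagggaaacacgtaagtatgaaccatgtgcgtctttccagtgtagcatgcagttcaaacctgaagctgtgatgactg
The Blnk window holds 1 octamer, whose first base lies 130 bases before the start, and 1 ETS core 201 bases before it. The Cd79a window holds 1 ETS core 54 bases before the start, and the Jchain, Btk and Pax5 windows hold neither motif. The EBF-type motif CCCNNGGG is in none of the 5. Over 32851 promoter windows of this length, 1.6% hold the octamer, 19.7% the ETS core and 11.8% the EBF-type motif. A match describes the letters only.

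The IgA heavy chain transcript was abundant in IKDC and PDC and low in cDC. Igha 100583_at had signals of 5908.6 and 4204.8 in IKDC, 190.1 and 226.6 in cDC, and 6474.4 and 2614.5 in PDC. All IKDC and PDC samples lay far above both cDC samples, and the IKDC samples fell between the 2 PDC samples. Mean signals were 5056.7 ± 1204.8 (SD, n = 2) in IKDC, 208 ± 25.8 (SD, n = 2) in cDC and 4544.4 ± 2729.4 (SD, n = 2) in PDC. The log2 difference was 4.48 ± 0.39 (SE) for IKDC over cDC (limma adjusted p = 5.73e-05) and 4.21 ± 0.39 for PDC over cDC (limma adjusted p = 0.000152). IKDC and PDC differed by 0.28 ± 0.39 (95% interval -0.58 to 1.13, limma adjusted p = 0.831). In bulk samples, fewer cells of a type and less RNA per cell cannot be told apart.

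The other Igha probe sets ran the same way at lower signals without being called. Igha 105413_at, on U74B, had 312.1 and 266.9 in IKDC, 116.8 and 118 in cDC, and 285.7 and 207.9 in PDC. Its cDC signals lay under the highest bacterial control of that array type, and its differences from cDC were 1.19 ± 0.32 for IKDC (limma adjusted p = 0.0617) and 0.96 ± 0.32 for PDC (limma adjusted p = 0.168). With a filter at 200, IKDC over cDC was called for this set (limma adjusted p = 0.0467). Igha 161486_f_at, a set that can bind related transcripts, had 183.8 and 110 in IKDC, 61.9 and 46.7 in cDC, and 185.5 and 85.5 in PDC. Both populations again lay above cDC without overlap, with limma adjusted p of 0.138 and 0.257. Igha 97009_f_at never exceeded 16.2 and was not tested.

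The J chain transcript followed the same order. Jchain 102372_at had 622.8 and 548.8 in IKDC, 67 and 173.5 in cDC, and 698 and 434.3 in PDC. Neither IKDC nor PDC overlapped with cDC, while the cDC samples themselves differed by a factor larger than that within either other population. IKDC exceeded cDC by 2.26 ± 0.39 log2 units (limma adjusted p = 0.00555) and PDC exceeded cDC by 2.18 ± 0.39 (limma adjusted p = 0.00974). Between IKDC and PDC the difference was 0.08 ± 0.39 (95% interval -0.78 to 0.95, limma adjusted p = 0.964). The call against cDC ended without IKDC replicate 1 (0.0505) or cDC replicate 1 (0.0521) for IKDC, and without cDC replicate 1 (0.0844) or PDC replicate 1 (0.0662) for PDC.

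The IgM heavy chain gave different patterns from different probe sets, which read different stretches or variants under 1 gene name; which stretch each one reads was not analysed here. Of 16 Ighm probe sets 8 were tested, and 4 were called in at least 1 comparison. Ighm 99420_at had 1583.8 and 852.9 in IKDC, 28.5 and 23.1 in cDC, and 900.7 and 665.3 in PDC. Both cDC samples lay under the minimum of 60 and all others far above it, so the fold over cDC was at least 19.4 for IKDC (limma adjusted p = 2.58e-05) and at least 12.9 for PDC (limma adjusted p = 6.2e-05). Here "at least" sets the geometric mean of the brighter samples against the minimum signal. Ighm 100362_f_at repeated this at lower signals, with 221.4 and 215.5 in IKDC, 23.3 and 8.9 in cDC, and 147.1 and 135.3 in PDC. Its fold over cDC was at least 3.64 in IKDC (limma adjusted p = 0.000601) and at least 2.35 in PDC (limma adjusted p = 0.00391). For neither was IKDC against PDC called, with log2 differences of 0.58 and 0.58 and limma adjusted p of 0.502 and 0.53.

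A second pattern showed high Ighm signal in all samples, cDC included, and the highest in PDC. Ighm 93584_at had 3093.8 and 1659.1 in IKDC, 937.2 and 1088.5 in cDC, and 6273.3 and 6534.2 in PDC. The 3 populations did not overlap. PDC exceeded cDC by 2.65 ± 0.32 log2 units (limma adjusted p = 0.000701), and IKDC stood 1.15 ± 0.32 above cDC (limma adjusted p = 0.0603). IKDC fell by 1.49 ± 0.32 relative to PDC (limma adjusted p = 0.0202). That call was lost without IKDC replicate 2 (0.258), PDC replicate 1 (0.0796) or PDC replicate 2 (0.0851), with median centring (0.069) and without the intensity trend (0.0637). IKDC against cDC was called with a filter at 200 (0.0401), quantile normalization (0.0458) and adjustment within each array type (0.0348). It was also called with the replicate number added as a block (0.0173). Without IKDC replicate 2, whose signal was the lower of the pair, the difference was 1.6.

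Ighm 93583_s_at, a set shared between transcripts, had 3152.8 and 1430.3 in IKDC, 1340.6 and 2099.9 in cDC, and 4891.5 and 5342.2 in PDC. IKDC and cDC overlapped, and both lay under PDC. PDC exceeded cDC by 1.6 ± 0.37 (limma adjusted p = 0.0384), and the comparisons of IKDC gave 0.34 ± 0.37 against cDC (limma adjusted p = 0.687) and -1.26 ± 0.37 against PDC (limma adjusted p = 0.098). The PDC call ended without any 1 of the cDC or PDC samples (0.0699 to 0.251), with no filter (0.0612), quantile normalization (0.0544) or median centring (0.0757), and without the trend (0.0985). IKDC against PDC was called with the replicate number added as a block (0.0255), and without IKDC replicate 1 the difference was -1.83. The 4 tested Ighm probe sets that were not called had lower signals, and Ighm 101870_at came nearest. It had 60 and 75.8 in IKDC, 7.8 and 7.3 in cDC, and 109.9 and 39 in PDC, with limma adjusted p of 0.0694 for IKDC and 0.0922 for PDC over cDC. IKDC over cDC was called in 8 of 15 alternatives, among them quantile normalization (0.0456) and median centring (0.0381), and PDC over cDC without PDC replicate 2 (0.0339). The 8 untested Ighm probe sets ran from 0.8 to 80.4.

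**Figure D1:**
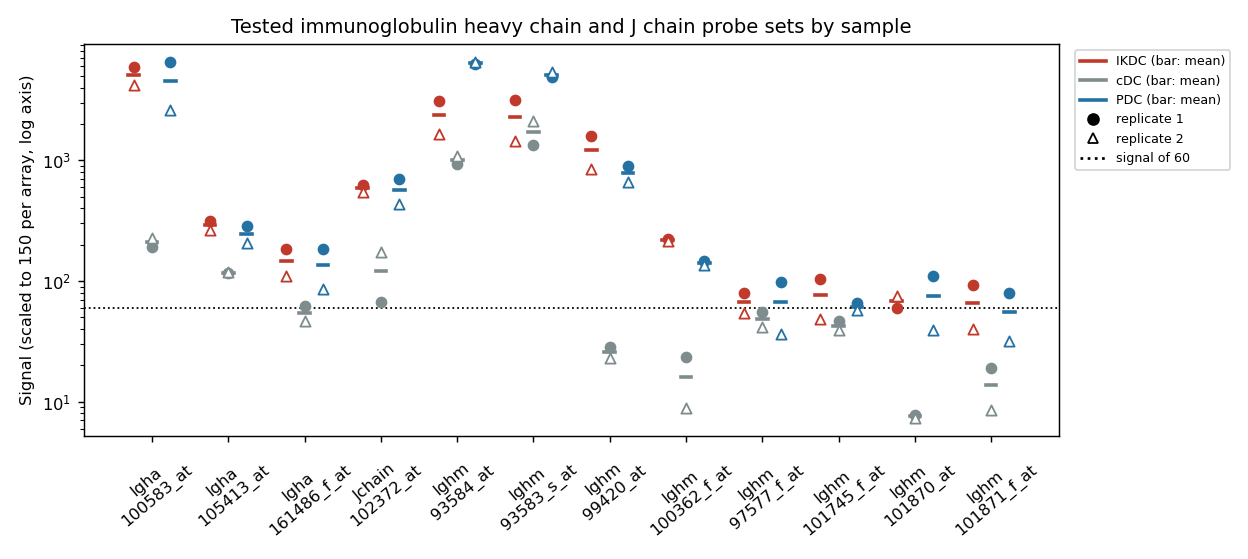
Signal of the 12 tested Igha, Jchain and Ighm probe sets (log axis, scaled to 150 per array) in IKDC, cDC and PDC; circles are replicate 1, triangles replicate 2, short bars the mean of 2 samples, and the dotted line the minimum of 60. Igha 100583_at and Ighm 99420_at show IKDC and PDC together above cDC, while Ighm 93584_at is highest in PDC at 6273.3 and 6534.2.

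The receptor chains and the surface protein of B cells were not called with all samples and population alone in the model. With the replicate number added as a block, Cd79a and Cd79b were called in IKDC over cDC (limma adjusted p = 0.0215 and 0.0225). Cd79b was then also called in PDC over cDC (limma adjusted p = 0.0122), and Ms4a1 104173_at and 99446_at in IKDC over PDC (limma adjusted p = 0.0314 and 0.0398). Cd79a 102778_at had 262.8 and 94.5 in IKDC, 59.4 and 36.6 in cDC, and 136.4 and 46.6 in PDC. The IKDC samples lay above cDC but differed 2.78-fold from each other, and the difference of 1.48 ± 0.52 over cDC had a limma adjusted p of 0.147. Cd79b 161012_at had 521.2 and 194.4 in IKDC, 182.7 and 90.9 in cDC, and 461.6 and 284.2 in PDC. IKDC and PDC lay above cDC without overlap, by 1.21 ± 0.46 (limma adjusted p = 0.178) and 1.38 ± 0.46 (limma adjusted p = 0.162).

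Ms4a1 stood apart in a single sample. Ms4a1 104173_at had 802.2 and 231.8 in IKDC, 287.4 and 196.9 in cDC, and 299.3 and 97.3 in PDC, and Ms4a1 99446_at had 461.2 and 120.9, 123.3 and 106.2, and 115.7 and 59.5 in the same order. IKDC replicate 1 was the highest sample for both, 3.46-fold and 3.81-fold over IKDC replicate 2, and IKDC overlapped with cDC. Limma adjusted p for IKDC over cDC was 0.476 and 0.345. For IKDC over PDC it was 0.334 and 0.221, and the second set was called there without IKDC replicate 2 (0.033). Ms4a1 105471_at, on U74B, lay between 38 and 65.1, under the highest bacterial control there.

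Pax5 96993_at had 159.4 and 104.4 in IKDC, 102.1 and 82.8 in cDC, and 148.4 and 13.2 in PDC. The PDC samples differed 11.2-fold, and all samples but IKDC replicate 1 lay between them. No comparison was called, with limma adjusted p of 0.778 for IKDC over cDC, 0.743 for PDC against cDC and 0.506 for IKDC over PDC, and both PDC comparisons were called without PDC replicate 1 (0.0391 and 0.0116). Pax5 102578_at never exceeded 25.1 and was not tested.

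The signalling adaptor Blnk was high in PDC alone among the 3 populations, and its 2 probe sets moved together. Blnk 100772_g_at had 112.3 and 38.9 in IKDC, 45.8 and 34.2 in cDC, and 904.2 and 1395.6 in PDC. PDC was at least 18.7-fold higher than cDC (limma adjusted p = 0.000177), and IKDC fell by 3.76 ± 0.41 log2 units relative to PDC (limma adjusted p = 0.000303). Blnk 100771_at had 158.9 and 115.3 in IKDC, 61.5 and 108.2 in cDC, and 717 and 829.1 in PDC. Every PDC sample lay above every other sample for both sets. The second set gave 3.0 ± 0.33 for PDC over cDC (limma adjusted p = 0.000409) and -2.38 ± 0.33 for IKDC against PDC (limma adjusted p = 0.00131). IKDC and cDC were not called apart by either set, with differences of 0.59 ± 0.41 (limma adjusted p = 0.491) and 0.63 ± 0.33 (limma adjusted p = 0.339). All 4 PDC calls of Blnk held in each of 16 alternatives, with adjusted p up to 0.0247.

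Btk, the kinase downstream of Blnk, was lower in IKDC. Btk 92668_at had 79.4 and 102.8 in IKDC, 275.1 and 279.3 in cDC, and 165.4 and 337.9 in PDC. The IKDC samples lay under all others, and the PDC samples lay on either side of cDC. PDC against cDC gave -0.21 ± 0.35 (limma adjusted p = 0.87) and IKDC against PDC -1.25 ± 0.35 (limma adjusted p = 0.0818). The latter was called with adjustment within each array type (0.0487) and with the replicate number added as a block (0.0313). Without PDC replicate 1 it was -1.73. IKDC fell by 1.46 ± 0.35 relative to cDC (limma adjusted p = 0.0346). Leaving out any 1 IKDC or cDC sample ended the call (0.12 to 0.232), as did median centring (0.121) and the fit without the trend (0.065). Btk 161971_r_at never exceeded 36.7 and was not tested.

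**Figure D2:**
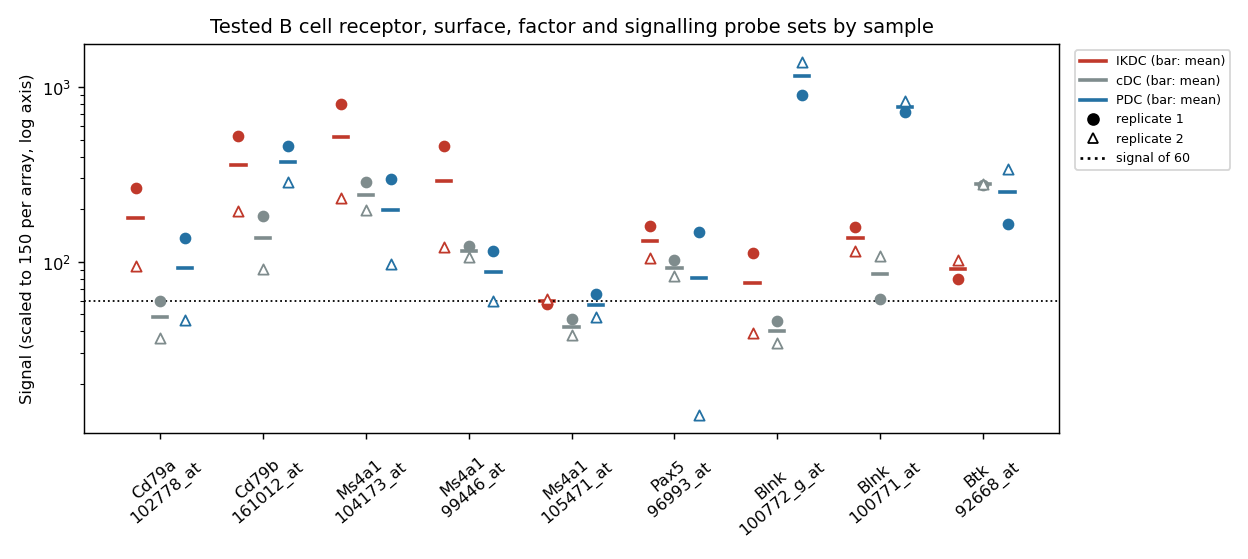
Signal of the 9 tested Cd79a, Cd79b, Ms4a1, Pax5, Blnk and Btk probe sets (log axis, scaled to 150 per array) by sample, with circles for replicate 1, triangles for replicate 2, bars for the mean of 2 samples and the minimum of 60 dotted. Both Blnk sets are high in PDC (717 to 1395.6), Btk is low in IKDC, and IKDC replicate 1 leads IKDC replicate 2 for Cd79a, Cd79b and the U74A sets of Ms4a1 (104173_at and 99446_at).

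Counted over all members, 21 of the 32 probe sets were tested and 9 were called at least once. In IKDC versus cDC 4 were called higher (Igha, Jchain and 2 of Ighm) and 1 lower (Btk), where 5.6% of all tested probe sets were called, 2.68% higher and 2.92% lower. For PDC versus cDC 8 were called higher (2 of Blnk, 1 of Igha, 4 of Ighm and Jchain) and none lower by limma, against 3.65% of all, 1.73% higher and 1.92% lower. None was lower at an unadjusted p under 0.05 either. For IKDC versus PDC none was called higher by limma, 2 at an unadjusted p under 0.05, and 3 lower (2 of Blnk and 1 of Ighm), against 4.45% of all, 2.06% higher and 2.39% lower. These comparisons share samples with one another. Over all 32 members, dim ones included, the median log2 difference was 0.53, 0.44 and 0.06 in the same order of comparisons, beside -0.1, -0.03 and -0.07 over all probe sets. Both IKDC samples lay above both cDC samples for 16 of the 32 members (19.7% of all probe sets) and below them for 4 (29.2%), and both PDC samples lay above both cDC samples for 17 (17.7%) and below them for 1 (19.7%). For IKDC against PDC these counts were 2 (17.7%) and 8 (22.2%). The count of calls in IKDC versus cDC fell from 5 to 3 without IKDC replicate 1 or without cDC replicate 1.

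**Figure D3:**
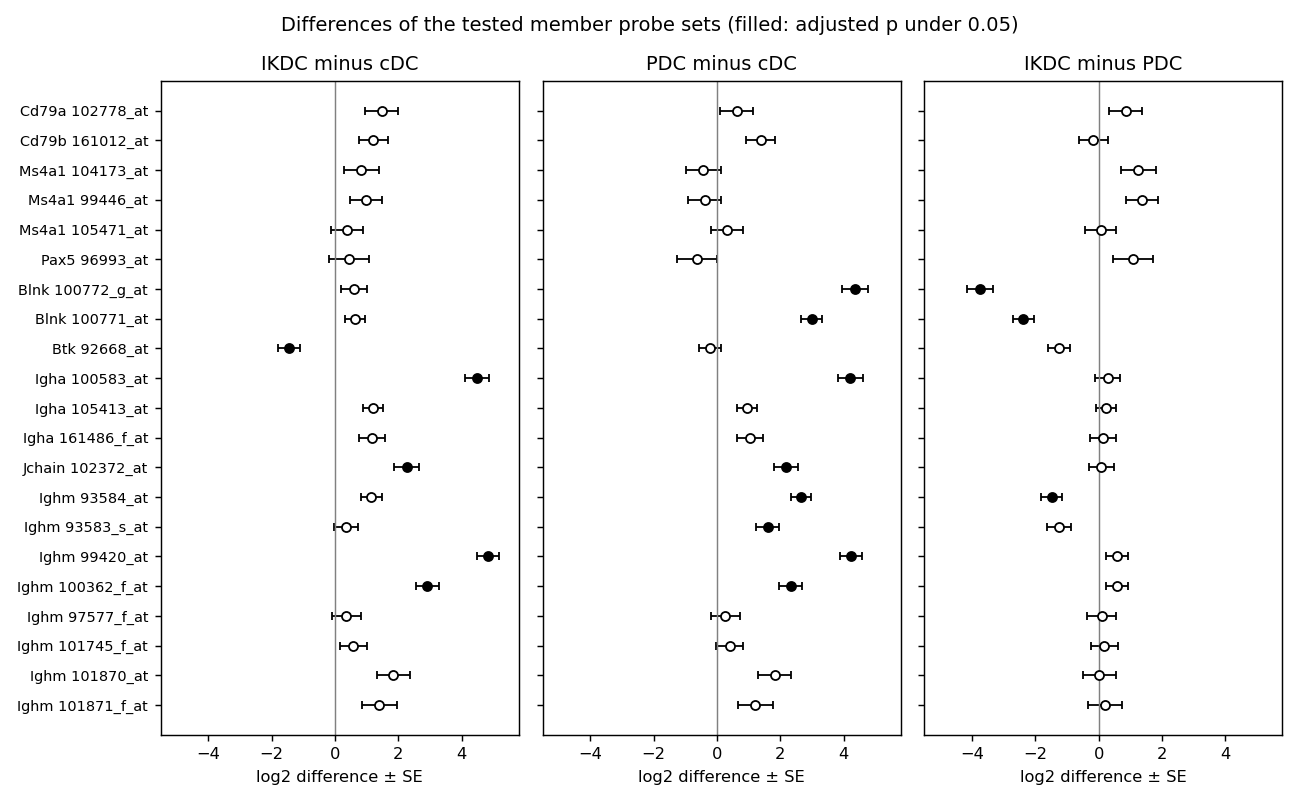
Log2 difference and SE (bars) of the 21 tested member probe sets in each comparison, from limma with 2 samples per population; filled points have an adjusted p under 0.05. Igha 100583_at (4.48 and 4.21), Jchain and Ighm 99420_at stand right of 0 in both comparisons with cDC. Between IKDC and PDC they stand at 0.28, 0.08 and 0.58, none of them called, and the Blnk sets at -3.76 and -2.38.

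Other immunoglobulin genes, mostly kappa variable segments, ran in the direction of Igha. They have 41 probe sets from 24 genes, and 23 of these sets were tested. Against cDC 5 were called higher in IKDC and 4 in PDC, where 2.68% and 1.73% of all tested probe sets were. None was called lower by limma, against 2.92% and 1.92% of all. Between IKDC and PDC none was called, where 2.06% of all were called higher and 2.39% lower. At an unadjusted p under 0.05 there was none there and none lower against cDC. Both IKDC samples lay above both cDC samples for 26 of the 41 (19.7% of all probe sets) and below them for 5 (29.2%), and for PDC over cDC the counts were 17 (17.7%) above and 2 (19.7%) below. The median log2 difference over the 41 was 0.85 for IKDC over cDC, 0.61 for PDC over cDC and 0.21 for IKDC over PDC. Many of these sets carry a family suffix and can bind several segments, so the named segment is uncertain. Without IKDC replicate 1 the 5 calls in IKDC fell to 2, and without PDC replicate 1 the 4 calls in PDC fell to 2.

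Igkv6-23, a kappa light chain variable segment, had 8246 and 4817.5 in IKDC, 210.9 and 624 in cDC, and 6831.8 and 3378.9 in PDC. IKDC and PDC lay above cDC without overlap, by 4.05 ± 0.48 (limma adjusted p = 0.000467) and 3.66 ± 0.48 (limma adjusted p = 0.00135). Iglv1, a lambda light chain segment on U74C, had 1939.6 and 786.9 in IKDC, 24 and 155 in cDC, and 1708.5 and 712 in PDC. The highest bacterial control on U74C was 148.7, so its cDC level is not clearly above background and the size of the difference is uncertain. Its differences were 3.92 ± 0.67 (limma adjusted p = 0.00605) and 3.76 ± 0.67 (limma adjusted p = 0.0107), and they were lost without IKDC replicate 1 (0.0852) for IKDC and without cDC replicate 1 (0.0803) or PDC replicate 1 (0.116) for PDC, and for both in the fit without the trend (0.0538 and 0.0845). Igkv6-14 was at least 4.58-fold higher in IKDC and at least 3-fold higher in PDC than in cDC, and Igkv14-111 at least 3.92-fold and 2.82-fold, with limma adjusted p of 0.000979 and 0.00443 for the former and 0.00266 and 0.0137 for the latter. The calls of Igkv14-111 were lost without IKDC replicate 1 (0.0596) for IKDC and without cDC replicate 2 (0.12) or PDC replicate 1 (0.0622) for PDC. The gamma chain set Ighg3 93927_f_at had 140.6 and 74.2 in IKDC, 17 and 16.7 in cDC, and 95.8 and 45.8 in PDC, and was called in IKDC over cDC (limma adjusted p = 0.0417) but not in PDC over cDC (limma adjusted p = 0.185). The call ended without any 1 of the IKDC or cDC samples (0.109 to 0.393) and with no filter (0.0665). The difference between those differences, IKDC against PDC, was not called (limma adjusted p = 0.699). Ighd, the heavy chain of IgD on resting B cells, ran from 138.1 to 221.6 over all samples and was not called.

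**Figure D4:**
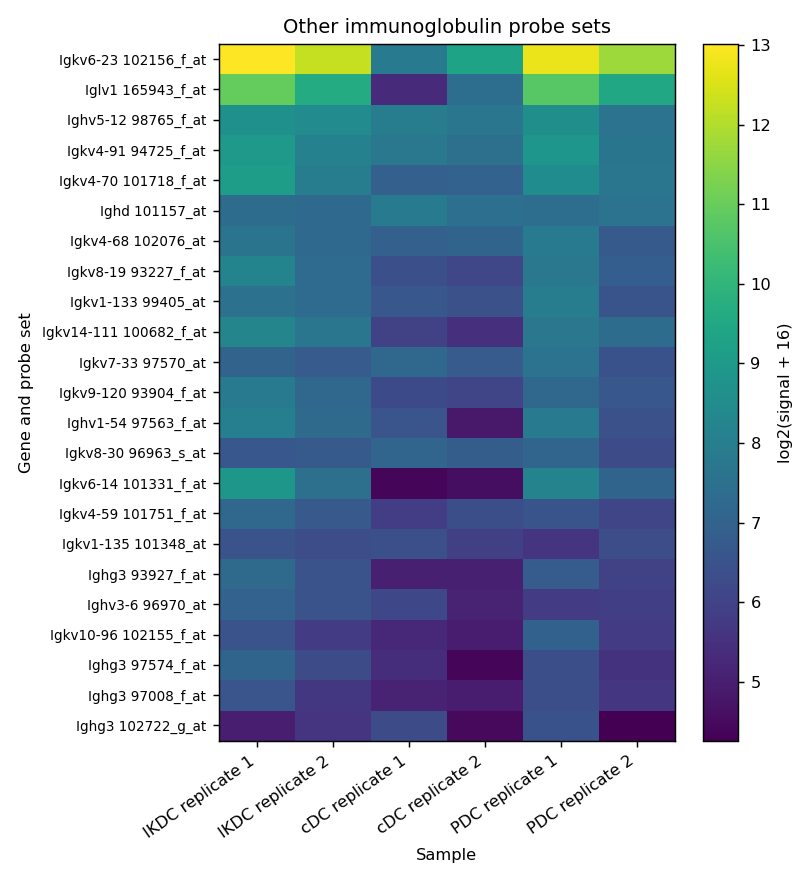
Colour gives log2(signal + 16) of the 23 tested probe sets of other immunoglobulin genes (rows) in the 6 samples (columns). Igkv6-23 and Iglv1 are bright in the IKDC and PDC samples and darker in cDC, and for most rows the replicate 1 column is brighter than the replicate 2 column in IKDC and in PDC.

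Further genes of the B cell receptor and the B lineage were called in both directions against cDC. This list has 70 probe sets, 48 of them tested. In IKDC versus cDC 5 were called higher and 7 lower, against 2.68% and 2.92% of all tested probe sets. PDC versus cDC gave 7 higher and 6 lower, against 1.73% and 1.92% of all. In IKDC versus PDC none was higher and 12 were lower, against 2.06% and 2.39% of all, with 5 higher there at an unadjusted p under 0.05. The lower calls in IKDC against cDC were Dapp1, an adaptor of phosphoinositide signalling, H2-Oa and H2-Ob, chains of a class II peptide loading regulator, Bcl6, Cd40, Cd81 and Rag1. Bach2, Cd37, Cd72, Fcmr, the Fc receptor for IgM, and Pou2af1, a coactivator of octamer-binding factors, were higher. Without IKDC replicate 1 or 2 or cDC replicate 1 or 2 the 12 calls fell to between 4 and 6, with 0 or 1 of them higher, and without the trend 7 were left, all lower. The 13 calls in PDC versus cDC fell to 8 without cDC replicate 2, and the 12 in IKDC versus PDC to 6 without IKDC replicate 2.

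In PDC the higher calls of that list were Spib, an ETS factor of plasmacytoid dendritic cells and B cells, both sets of Dntt and of Fcrla, Ly6d and Tnfrsf13b. Spib 93657_at had 239.5 and 116.7 in IKDC, 58.8 and 86.6 in cDC, and 1525.5 and 2944.3 in PDC. PDC exceeded cDC by 4.61 ± 0.4 (limma adjusted p = 9.71e-05), and IKDC fell by 3.54 ± 0.4 relative to PDC (limma adjusted p = 0.000346). The second set, Spib 93388_s_at, had 58.8 and 19 in IKDC, 63.4 and 86 in cDC, and 268.4 and 137.7 in PDC, and was not called in PDC over cDC (limma adjusted p = 0.222). Tnfrsf13b, the TACI receptor, had 332.6 and 223.8 in IKDC, 422.5 and 642 in cDC, and 1804 and 2207.9 in PDC. It exceeded cDC by 1.91 ± 0.3 (limma adjusted p = 0.00647), a call lost without cDC replicate 1 (0.0731) and without the trend (0.054). Cd22, an inhibitory coreceptor, went the other way in PDC, with 28.6 and 68.1 against 229.8 and 343.7 in cDC and 153.4 and 113.3 in IKDC (PDC against cDC -2.28, limma adjusted p = 0.00683).

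Genes of plasma cells and of protein secretion were called higher in both populations for a few members. Of 37 probe sets 25 were tested, and 4 were called higher in IKDC and 5 in PDC than in cDC. Of all tested probe sets 2.68% and 1.73% were called higher in these comparisons, and 2.92% and 1.92% lower. None of the 25 was lower by limma, and at an unadjusted p under 0.05 there were 2 and 0. Between IKDC and PDC 2.06% of all were called higher and 2.39% lower. Mzb1, an endoplasmic reticulum protein that helps IgM assembly and is also expressed in plasmacytoid dendritic cells, had 457.9 and 249.7 in IKDC, 24.9 and 54.2 in cDC, and 1216.9 and 1457.7 in PDC. The fold over cDC was at least 5.64 for IKDC (limma adjusted p = 0.0023) and at least 22.2 for PDC (limma adjusted p = 0.00017), although the minimum of 60 lies under the highest bacterial control of U74B. Txndc5, a disulfide isomerase, had 649.8 and 552.2 in IKDC, 119.2 and 170.8 in cDC, and 751.7 and 1020.2 in PDC. Xbp1, the factor of the secretory programme, had 173.6 and 192.2 in IKDC, 251 and 216.3 in cDC, and 756.6 and 1416.2 in PDC. It was called in PDC over cDC (2.08 ± 0.33, limma adjusted p = 0.00446) and in IKDC against PDC (-2.4 ± 0.33, limma adjusted p = 0.00123), not in IKDC against cDC (-0.33 ± 0.33, limma adjusted p = 0.653), and the first call ended without cDC replicate 2 (0.0549). The other calls were Cd28, also among the T cell markers read below, in both populations, Hsp90b1 in PDC and Pou2af1 in IKDC. Pou2af1 is also on the B lineage list, so its call is counted in both lists. Cd28 lost its call in PDC without cDC replicate 2 (0.0817), and Hsp90b1 without any 1 cDC or PDC sample (0.065 to 0.116) and without the trend (0.0707). Pou2af1 had 229.5 and 111.5 in IKDC against 23.1 and 42.2 in cDC, and its call ended without any 1 of these samples (0.0818 to 0.397), with a pseudocount of 1 (0.0583), with no filter (0.0727) and without the trend (0.0519). Without cDC replicate 2 the 5 calls in PDC fell to 2. Between IKDC and PDC none was called higher by limma, 2 at an unadjusted p under 0.05, and 2 were lower (Xbp1 and Mzb1), 1 of them without PDC replicate 1 or PDC replicate 2.

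Defining markers of B cells and plasma cells were read beside these results on U74A, 1 probe set per gene. Of 11 B cell markers 10 have a set there. Their summed signal was 2287.9 and 909.2 in IKDC, 1077.8 and 937.5 in cDC, and 1326.3 and 681.1 in PDC. IKDC replicate 1 had the highest sum, IKDC replicate 2 lay under both cDC samples, and PDC spanned cDC. Leaving out the members, the other 6 markers (Cd22, Blk, Fcer2a, Vpreb3, Ebf1 and Cr2) summed to 542.3 and 284.1 in IKDC, 446.2 and 530.3 in cDC, and 280.6 and 239.8 in PDC. No marker was listed at 0, but Vpreb3, Ebf1 and Cr2 were under 60 in every sample and Fcer2a in all but IKDC replicate 1, at 63.1.

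Replicates differed in these genes. Replicate 1 exceeded replicate 2 for 23 of the 32 members in IKDC, 20 in cDC and 26 in PDC, and for all 10 B cell markers in IKDC, 7 in cDC and 8 in PDC, where 18950, 19548 and 22022 of all 36701 probe sets did so. Igha 100583_at was 1.41-fold, Jchain 1.13-fold and Ighm 99420_at 1.86-fold higher in IKDC replicate 1. There Cd79b was 2.68-fold, Cd79a 2.78-fold and Ms4a1 104173_at 3.46-fold higher. Within PDC, replicate 1 was 2.48-fold higher for Igha 100583_at, 1.61-fold for Jchain and 1.35-fold for Ighm 99420_at. The PDC values for Cd79b, Cd79a and Ms4a1 104173_at were 1.62-fold, 2.93-fold and 3.08-fold. In cDC, replicate 2 was the higher for Igha 100583_at and Jchain, and replicate 1 for the other sets named. The log2 difference of Igha 100583_at between IKDC and cDC ran from 4.22 to 4.73 over the 16 alternatives. For this set and for Ighm 99420_at all 16 alternatives kept both calls over cDC. What part B cells have in the values of Cd79a, Cd79b and Ms4a1 was not tested.

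**Figure D5:**
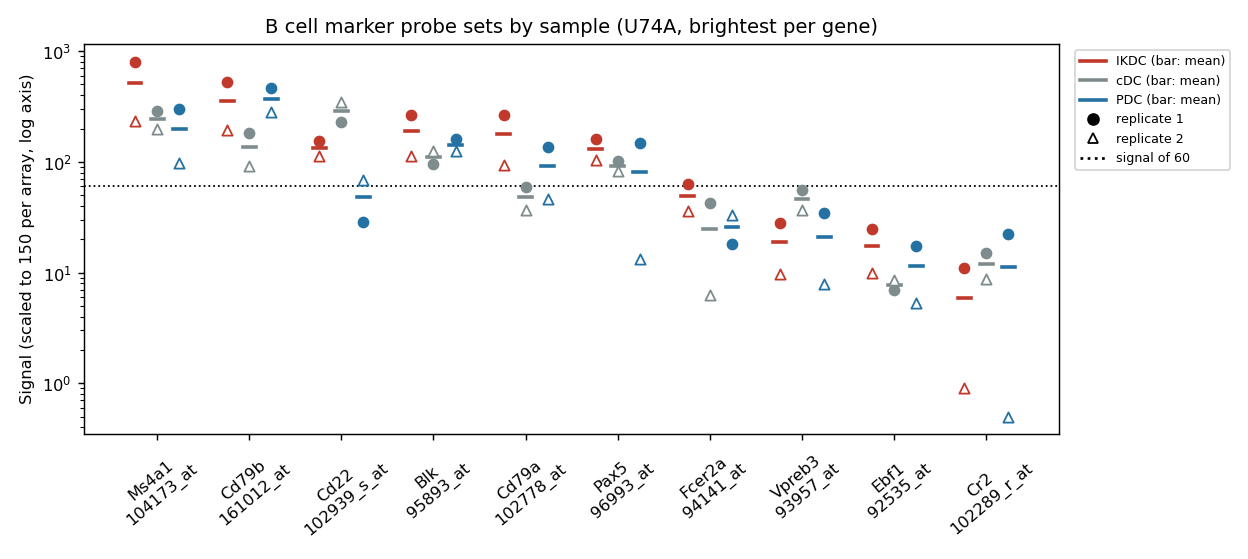
Signal (log axis, scaled to 150 per array) of the 10 B cell markers with a U74A probe set, by sample, with circles for replicate 1, triangles for replicate 2, bars for the mean of 2 samples and the minimum of 60 dotted. Replicate 1 lies above replicate 2 in IKDC for all 10, and the 4 dimmest markers stay under 60 apart from Fcer2a at 63.1 in IKDC replicate 1.

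Of 9 plasma cell markers 6 have a U74A set, 3 of them members. The 6 summed to 9797.8 and 6579.4 in IKDC, 1362.7 and 1611.2 in cDC, and 13656.1 and 9720.7 in PDC, and the 3 that are no members (Sdc1, Tnfrsf17 and Prdm1) to 172.6 and 166.7, 168.4 and 122.6, and 210.4 and 137.7. The first sums consist mostly of the members Igha, Ighm and Jchain. The second sums overlapped between all 3 populations, but rest on dim genes, with signals of 6.1 to 111.6. The sums use U74A only, so the U74B sets of Mzb1 and Derl3 are not in them. Mzb1 had 457.9 and 249.7 in IKDC, 24.9 and 54.2 in cDC, and 1216.9 and 1457.7 in PDC, and was called over cDC in both. Derl3 was called over cDC in neither (limma adjusted p = 0.713 for IKDC and 0.762 for PDC). Sdc1, the plasma cell syndecan CD138, had 49.5 and 59.8 in IKDC, 84 and 60.8 in cDC, and 111.6 and 67.7 in PDC. Prdm1, the plasma cell repressor Blimp-1, stayed under 60 in every sample.

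The summed signals of markers of red cell precursors and of the pancreas were also larger in the IKDC and PDC samples than in cDC. The summed signal of 3 erythroid markers was 14210.7 and 16773.1 in IKDC, 671.9 and 1660.7 in cDC, and 22261.6 and 9364.9 in PDC. The haemoglobin gene Hba-a1 was highest in PDC replicate 1 and, within cDC, higher in replicate 2, as Jchain was. Within IKDC they went opposite ways, with 12059.9 and 13455.5 for Hba-a1 and 622.8 and 548.8 for Jchain. The other erythroid markers, Car2 and Alas2, were also higher in replicate 2 within cDC, but highest in IKDC replicate 2 (1986.2 and 1331.4). The 4 pancreas acinar markers summed to 3405.5 and 2786.9 in IKDC, 886.6 and 986.7 in cDC, and 1847.2 and 1252.6 in PDC. Single pancreas markers could differ: Cela2a in PDC replicate 2 (85.1) lay under both cDC samples (118.7 and 106.7). T cell markers, 7 on U74A, summed to 1378.3 and 872.1 in IKDC, 677.4 and 563 in cDC, and 982.6 and 1195.6 in PDC. Cd4 was the largest of these signals in cDC (268.7 and 266) and in PDC (398.7 and 769.8). Cd3g had 466.5 and 172.9 in IKDC against 5.2 to 66.2 elsewhere. The part of such RNA from other cells in the immunoglobulin values was not tested.

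Likeness over the 6 samples was described by Pearson's r of log2 values against 3283 bright genes on U74A, with no test, since the samples form 3 groups of 2. Nearest to Igha 100583_at were Ext2 (0.996), Ptprcap (0.987), the erythroid carbonic anhydrase Car1 (0.983), Igkv6-14 (0.982) and Hsd11b1 (0.981). Jchain was followed by Nsmce1 (0.995), Igkv6-23 (0.992), Hba-a1 (0.991), Banp (0.989) and Pfkl (0.989). For Ighm 93584_at the nearest were Sema4b (0.988) and Fam3c (0.984), both highest in PDC. Gdpd3 (0.994) came nearest to Cd79a and Osbp (0.99) to Cd79b. Igha and Jchain each had a kappa segment and an erythroid gene among their 5 nearest genes. A kappa segment, Igkv4-91 (0.959), was also among the 5 nearest to Cd79a. Pancreatic protease genes were among the 5 nearest too, 2210010C04Rik (0.951) for Cd79a and Ctrl (0.958) for Cd79b.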

How the data were processed

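Transcript signals were measured in 3 mouse spleen cell populations, with 2 samples each on 3 array types. The authors' deposited intensity values are linear; they were made with GCOS 1.1.1, with each array scaled to 150, per the labels, and MAS5 is named in the submitters' processing notes. Scaling sets every array to 1 mean level, so differences are relative to it.

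Members and gene lists were chosen with earlier results of these data known. Platform gene names were updated by gene identifier to GRCm38.p6: 29131 probe sets have 1 symbol, 724 several and 6846 none listed. The 66 control probe sets per type were left out. Models were fitted per array type in R 4.3.3 with limma 3.58.1 (lmFit, then eBayes with a trend) on log2(signal + 16), with all 3 populations in the model and 3 residual degrees of freedom. Benjamini-Hochberg adjustment covered the 23285 tested probe sets together. The script was tested on simulated data. Levels were compared within a probe set only. Named genes are all member probe sets and, from each further list, up to 6 called genes of smallest adjusted p in any comparison, each by its brightest probe set; Ighd, Rag1, Bach2, Cd37, Cd72, Fcmr, Fcrla, Ly6d, Cd40, Cd81, H2-Ob and Cd22 were named after their values were seen, to account for the counts. Motifs were searched on both strands. Alternatives were 10 settings of pseudocount, filter, normalization, model and adjustment and the omission of each sample; the list counts under them were added after seeing the data.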

Additional observations from a re-analysis of the deposited data

How the results depend on the processing

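With each sample left out in turn, calls over all tested probe sets ranged from 593 to 1656 in IKDC versus cDC (1305 with all samples), 327 to 719 in PDC versus cDC (849) and 493 to 869 in IKDC versus PDC (1036). Member calls ranged from 3 to 7 in IKDC versus cDC (5), and the replicate block gave 9. In IKDC versus PDC (3) the replicate block gave 7. The block added limma calls of Cd79a (0.0215), Cd79b (0.0225), Ighm 93584_at (0.0173) and Ighm 101870_at (0.0395) in IKDC versus cDC. In PDC versus cDC it added Cd79b (0.0122). In IKDC versus PDC it added Ms4a1 104173_at (0.0314) and 99446_at (0.0398), Btk 92668_at (0.0313) and Ighm 93583_s_at (0.0255). Member calls in PDC versus cDC (8) ranged from 6 to 9 over all alternatives. Deviations of same-numbered samples had correlations of -0.086 to 0.235 over the tested probe sets of each array type. Such values do not settle whether the numbers pair the samples. Replicate 1 was the higher for 23, 20 and 26 of the 32 members in IKDC, cDC and PDC (51.6%, 53.3% and 60% of all probe sets). Of 1788 alternative values of single probe sets, 1651 kept direction and side of the threshold, 72 lost a call, 34 gained one and 31 changed sign, all 31 without a call. The log2 ranges with 1 sample left out that cross 0 were, in IKDC versus cDC, Blnk 100772_g_at -0.02 to 1.2, Ighm 93583_s_at -0.23 to 0.9, Ms4a1 104173_at -0.04 to 1.69. In PDC versus cDC they were Btk 92668_at -0.69 to 0.27, Cd79a 102778_at -0.01 to 1.27, Ighm 97577_f_at -0.29 to 0.84, Ms4a1 104173_at -1.17 to 0.31, Ms4a1 99446_at -0.79 to 0.01, Pax5 96993_at -1.89 to 0.61, Pou2af1 93915_at -0.03 to 0.96. In IKDC versus PDC they were Cd79b 161012_at -0.85 to 0.5, Igha 100583_at -0.38 to 0.93, Igha 161486_f_at -0.34 to 0.64, Ighm 97577_f_at -0.47 to 0.65, Ighm 101745_f_at -0.27 to 0.63, Ighm 101870_at -0.59 to 0.6, Ighm 101871_f_at -0.3 to 0.69, Jchain 102372_at -0.25 to 0.42, Ms4a1 105471_at -0.11 to 0.23, Pax5 96993_at -0.18 to 2.32, Igkv6-23 102156_f_at -0.12 to 0.9, Igkv6-14 101331_f_at -0.12 to 1.26, Iglv1 165943_f_at -0.48 to 0.8, and with a pseudocount of 64 Ighm 101870_at gave -0.02. Median centring moved the median of all tested probe sets to 0.11 in IKDC versus cDC; the cause of these changes was not tested. The replicate block raised the calls of the other immunoglobulin genes in IKDC versus cDC from 5 to 10, and median centring to 8.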
